A study of Mus musculus with 9 samples.

Results

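Slpi (ENSMUSG00000017002) and Spink6 (ENSMUSG00000055095) encode secreted inhibitors of serine proteases. They are 2 of 14052 genes in a table of RNA sequencing counts from mouse kidney cortex, and both were chosen because earlier results of these data placed them among the genes most increased in tumour. Their difference between tumour and normal kidney is therefore described here and not tested. The tumour group consists of 5 cortical tumour areas (L4, R2, R3, R4, R5) of VhlF/FPbrm1F/FKsp-Cre mice on a mixed C57BL/6, BALB/c and 129 background. The normal group consists of 4 cortex areas (L1, L2, R1, R2) of wild-type C57BL/6 mice. All animals received a normal diet and were about 1 year old. The Ksp promoter belongs to the kidney cadherin gene Cdh16, so Cre is meant to delete Vhl and Pbrm1 in tubule cells and not in the other cells of an area. Each group's descriptions carry a single number, and a group could therefore be 1 animal, in which case SDs and p-values measure only the spread between its areas. Strain and genotype go together and cannot be told apart.

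Slpi, the secretory leukocyte protease inhibitor, is built from whey acidic protein (WAP) domains. It blocks neutrophil elastase and cathepsin G, is secreted by mucosal and glandular epithelia, and is also made by phagocytes, in which it dampens NF-kB signalling. Spink6 carries a Kazal domain and is known as an inhibitor of several kallikrein-related proteases of the skin. In the kidney, Klk1, the founding tissue kallikrein, is made by the connecting tubule and passes into the urine.

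Libraries held 5143527 to 8250261 counted reads. Values are CPM, reads scaled to a common library size after TMM correction for differences in composition. Vhl stood at 59.9 ± 11.9 CPM (SD, n = 5) in tumour and 104 ± 4.69 CPM (SD, n = 4) in normal areas (log2 fold change -0.79 ± 0.13 (SE), adjusted p = 0.000248 in edgeR), and Pbrm1 at 136 ± 21.5 and 155 ± 10.1 CPM (-0.19 ± 0.11 (SE), adjusted p = 0.142). Markers of the proximal tubule were present in all areas, with a summed level of 30800 to 33000 CPM in normal and 8220 to 16000 CPM in tumour areas. Tumour areas L4 and R5 stood apart by fat cell markers, at 599 and 128 CPM against 17.4 CPM or less elsewhere in the tumour group, and by urothelial markers, at 972 and 214 against 42.6 to 104 CPM. No read was listed for 28.4% of all genes, Anxa2 and Spp1 included, so a 0 in the table does not show that a gene is silent. In bulk tissue, fewer cells of a type and less RNA per cell cannot be told apart.

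The stretch of DNA before the start of Slpi is shown because Vhl restrains the hypoxia-inducible factors, whose binding core is ACGTG or GCGTG. It covers the 250 bases before the RefSeq start on the minus strand (build GRCm38.p6, chr2:164356508-164356757), with a CACGTG match in capitals.
Slpi: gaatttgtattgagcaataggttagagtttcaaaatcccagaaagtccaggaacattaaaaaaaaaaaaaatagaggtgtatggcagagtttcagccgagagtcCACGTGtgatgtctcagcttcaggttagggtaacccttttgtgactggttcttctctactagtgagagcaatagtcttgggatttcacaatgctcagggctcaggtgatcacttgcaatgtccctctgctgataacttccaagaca
The capitals begin 146 bases before the start and hold the hypoxia core once on each strand, with both matches overlapping inside the palindrome. The core, on either strand, occurs in 38.6% of 32851 RefSeq promoter windows of this length. CACGTG, which is also a motif of its own, the E-box, occurs in 6.02%. A C/EBP-type match (TTGCNNAA, either strand) begins 241 bases before the start, as in 9.56% of windows. No match was found, on either strand, to NF-kB (GGG and CC with any 5 bases between them, 45.8% of windows), STAT (TTCNNNGAA, 7.02%), AP-1 (TGANTCA, 6.75%), interferon response (GAAA repeated after any 2 bases, 2.98%) or TATAAA (12.4%) letters. These are matches of letters, and the counts do not measure binding. No such stretch was available for Spink6.

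Slpi was near the limit of detection in normal cortex and abundant in every tumour area. The normal areas held 3 (L1), 5 (L2), 2 (R1) and 3 (R2) reads, or 0.332 to 0.681 CPM. The tumour areas held 2541 (L4), 1165 (R2), 650 (R3), 1145 (R4) and 1489 (R5) reads. These came to 353 CPM in L4, 226 in R5, 195 in R2, 166 in R4 and 118 in R3. The groups were far apart, and the lowest tumour area stood above the highest normal area. Within the tumour group L4 was highest and R3 lowest, a 3.0-fold range, and the 95% Poisson intervals of areas next to each other in this order did not overlap (340 to 367, 215 to 238, 184 to 207, 157 to 176 and 109 to 127 CPM). Such intervals cover counting error only. The tumour mean was 212 ± 88.6 CPM (SD, n = 5) against 0.567 ± 0.160 CPM (SD, n = 4). Pooled counts gave a ratio of 384 (95% exact counting interval 224 to 721), and the fitted log2 fold change was 8.50 ± 0.49 (SE), the 5th largest of 7020 genes that passed the filter on low counts.

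Spink6 was absent or nearly so from the normal libraries and was counted in every tumour area. A single read was found in normal area R1 and 0 in L1, L2 and R2, where a count of 0 allows up to 0.648, 0.409 and 0.607 CPM. The tumour areas held 175 (R3), 158 (R4), 130 (R5), 100 (L4) and 76 (R2) reads. In CPM they stood at 31.7 in R3, 22.9 in R4, 19.8 in R5, 13.9 in L4 and 12.7 in R2. Here R3 was highest and R2 lowest, a 2.49-fold range. The interval of R3 (27.2 to 36.8 CPM) lay above that of R4 (19.5 to 26.8), whereas R4 and R5 (16.5 to 23.5), R5 and L4 (11.3 to 16.9), and L4 and R2 (up to 15.9) overlapped. The tumour mean was 20.2 ± 7.68 CPM (SD, n = 5). With 639 tumour reads against 1, the ratio was 456 (95% exact counting interval 81.6 to 18000). The fitted value of 8.30 ± 0.61 (SE) became 9.95 without normal area R1, because it then depends on the prior count alone. Both genes thus had every tumour area above every normal area, as did 34.8% of the tested genes, and nothing is read from this, since the genes were chosen on it.

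**Figure D1:**
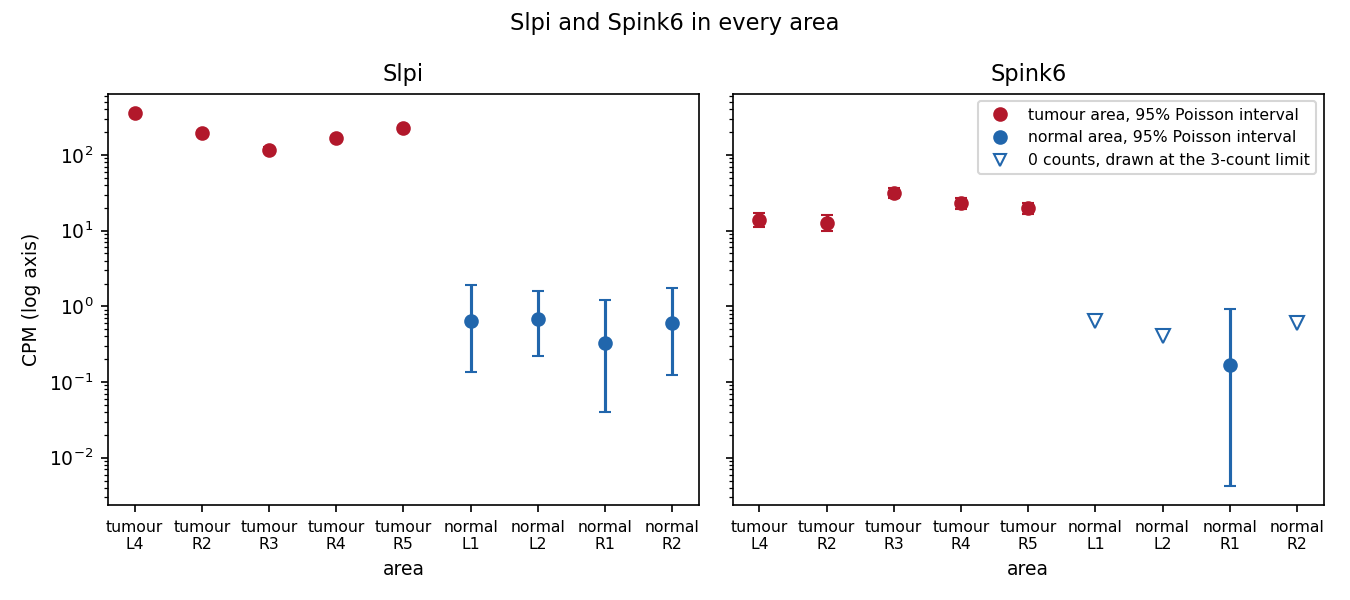
CPM on a log axis (vertical) in each of 9 areas (horizontal) for Slpi (left) and Spink6 (right); points are areas, bars are 95% Poisson intervals, and open triangles mark areas with 0 counts, drawn at the level of 3 counts. Slpi ran from 118 to 353 CPM in tumour and from 0.332 to 0.681 CPM in normal areas, and Spink6 from 12.7 to 31.7 CPM in tumour areas with 1 read in all normal areas.

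Per length of the main transcript in GENCODE M21 (876 bases for Slpi, 588 for Spink6), the tumour level was 242 ± 101 CPM per kilobase for Slpi and 34.4 ± 13.1 for Spink6 (SD, n = 5). Slpi was the more abundant transcript in each tumour area, but by very different margins. The ratio of Slpi to Spink6 per length was 17.1 in L4 (95% exact counting interval 14.0 to 21.0), 10.3 in R2 (8.15 to 13.2), 7.69 in R5 (6.42 to 9.27), 4.86 in R4 (4.12 to 5.78) and 2.49 in R3 (2.11 to 2.96). Only the intervals of R2 and R5 overlapped among areas next to each other in this order.

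The inhibitors did not share a pattern over the tumour areas. Area R3 had the least Slpi and the most Spink6, and L4 had the most Slpi and the second least Spink6. On log2 CPM centred on the tumour mean, Slpi lay at 0.83 in L4 and -0.75 in R3, and Spink6 at -0.45 in L4 and 0.72 in R3. The likeness of a pair of genes was measured as the root mean square (RMS) difference of these centred values over the 5 areas, where a smaller value means more alike. It was 0.937 between Slpi and Spink6, against each gene's own spread of 0.521 and 0.473. Among 5299 other genes with a tumour mean of at least 10 CPM, Spink6 came 5203rd in nearness to Slpi, and Slpi came 5199th in nearness to Spink6. The median difference was 0.543 from Slpi and 0.486 from Spink6. Without R3 the difference was 0.651 and these places were 4803rd and 4943rd; without L4 they were 5211th and 5181st. These values describe 5 areas and carry no test.

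**Figure D2:**
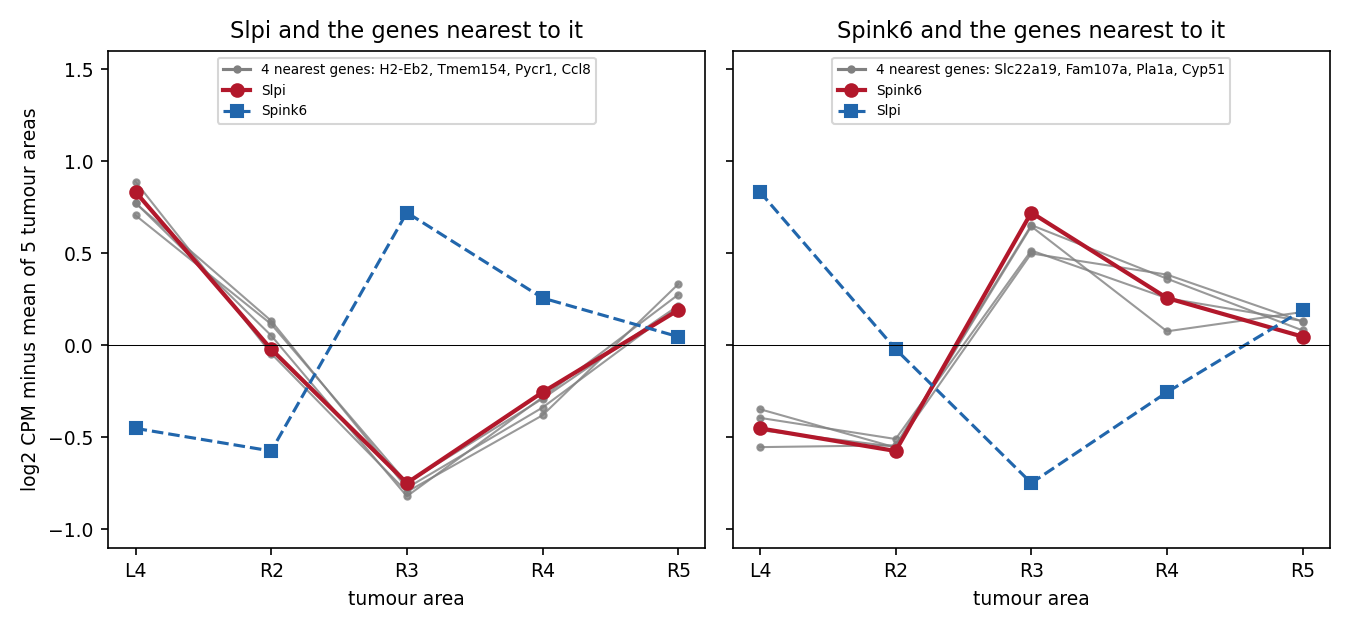
Log2 CPM minus the mean of the 5 tumour areas (vertical) in each tumour area (horizontal), for Slpi with its 4 nearest genes in grey (left) and Spink6 with its 4 nearest genes in grey (right); the dashed line repeats the other inhibitor, and lines only join a gene's points, since areas have no order. Slpi is highest in L4 (0.83) and lowest in R3 (-0.75), while Spink6 is highest in R3 (0.72).

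The genes nearest to Slpi were H2-Eb2, an MHC class II beta chain (RMS difference 0.0666), Tmem154, a membrane protein (0.0845), Pycr1, of proline synthesis (0.0855), Ccl8, a chemokine (0.0911), and Plcg2, a phospholipase of B cell and Fc receptor signalling (0.0929). H2-Eb2 stood at 51.0 CPM in L4, 36.0 in R5, 30.8 in R2, 24.4 in R4 and 16.7 in R3, the same order of areas as Slpi. Ccl8 stood at 247 CPM in L4, 168 in R5, 129 in R2, 102 in R4 and 76.5 in R3. Genes entered this comparison by a tumour mean of at least 10 CPM, which H2-Eb2, Tmem154, Pycr1 and Ccl8 reached in the tumour group alone, so that choice favoured a difference from normal areas and their values are a description. Their normal means were 0.434, 4.87, 0.511 and 0.771 CPM, and their log2 fold changes 6.26, 4.74, 5.64 and 7.57. Plcg2, which passed that level in both groups, rose from 20.9 ± 1.96 to 61.0 ± 21.1 CPM (1.54 ± 0.24 (SE), adjusted p = 0.00016). Of 7020 tested genes 74.6% were called in either direction (adjusted p under 0.05 in edgeR), 39.3% higher and 35.3% lower. With scaling by library size alone the share of higher genes among the calls was 68.8% in place of 52.7%, and the median log2 fold change moved by 0.29.

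The genes nearest to Spink6 were different in kind. The first 4 were Slc22a19, an organic anion carrier (RMS difference 0.0753), Fam107a (0.107), Pla1a, a phospholipase (0.116), and Cyp51, an enzyme of cholesterol synthesis (0.121). Slc22a19 stood at 174 CPM in R3, 142 in R4, 117 in R5, 75.8 in R2 and 75.2 in L4, so it was high where Spink6 was high and low where it was low. Fam107a stood at 73.6 CPM in R3, 61.5 in R4, 56.4 in R5, 39.1 in L4 and 36.0 in R2, the same order as Spink6. Against normal areas these genes did not move one way. Fam107a fell by 1.76 on the log2 scale (adjusted p = 1.02e-05). Cyp51 rose from 456 ± 37.6 to 854 ± 271 CPM (adjusted p = 0.00286). Slc22a19 and Pla1a rose by 0.67 and 0.64 (adjusted p = 0.0298 and 0.0275). Slc22a19 lost its call without tumour R3 or R4 or normal L2, R1 or R2 (adjusted p = 0.0611, 0.0623, 0.0656, 0.0808 and 0.0765), with the area letter as a covariate (0.0719) and in limma-voom (0.0542). Pla1a lost its call without tumour R5 or normal L2, R1 or R2 (adjusted p = 0.0524, 0.0553, 0.0798 and 0.0687) and with the area letter as a covariate (0.0536).

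Over more neighbours the calls near Slpi and near Spink6 differed, although among the genes named above for Spink6 only Fam107a was called lower. Of the 100 genes nearest to Slpi, 88 were called higher in tumour and 3 lower, and of the 100 nearest to Spink6, 7 were called higher and 68 lower. Among all 5300 genes that reached the tumour mean of 10 CPM, 41.1% were called higher and 36.1% lower. Leaving out R2 gave 17 higher and 46 lower for Spink6, and leaving out R3 gave 71 and 3 for Slpi. The exact order of areas of Slpi (L4, R5, R2, R4, R3) was shared by 198 genes, of which 140 were called higher and 19 lower. The order of Spink6 (R3, R4, R5, L4, R2) was shared by 84 genes, of which 9 were called higher and 55 lower. Spink6, with nearly no reads in normal cortex, thus varied over the tumour areas like genes that were mostly lower in tumour.

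Summed marker lists of cell types gave the same picture, and 19 summed lists were compared, each without Slpi and Spink6. The 7 B and plasma cell genes in the table were closest to Slpi (RMS difference 0.112), at 1140 CPM in L4, 835 in R5, 784 in R2, 552 in R4 and 417 in R3. All 6 of them that were tested were called higher in tumour, beside 39.3% of all tested genes, and none of the 7 was at 0 throughout. Of these, Cd79b, Blk, Pax5 and Ms4a1 passed the filter on low counts through the tumour areas alone. Mzb1, of plasma cells (0.106 from Slpi), ran 750, 539, 512, 363 and 276 CPM in that order of areas. The 9 T cell genes came next (0.143), at 329 CPM in L4, 279 in R5, 213 in R2, 164 in R4 and 134 in R3, although Cd2 and Lck were listed at 0. Cd4, the helper T cell receptor (0.133), and Pdcd1, an inhibitory receptor (0.130), lay close to Slpi too. Macrophage genes were at 0.326, with 780 to 1970 CPM in tumour and 88.6 to 115 CPM in normal areas. The part of these cells in the level of Slpi was not tested.

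Slpi was also set against the lymphocyte sums. Slpi per summed B and plasma cell CPM was 0.249 to 0.311 in the tumour areas, a 1.25-fold range, and 0.0444 to 0.0526 in the normal areas. Per summed T cell CPM it lay between 0.812 and 1.07 in tumour areas and between 0.0400 and 0.0732 in normal ones. Over the tumour areas both ratios varied less than Slpi itself, which ranged 3.0-fold. This follows from the choice of lists, which were those nearest to Slpi over the same areas, and is no further support. Nothing is read from the difference between the groups, since Slpi was chosen for its increase in tumour and the normal ratios rest on 2 to 5 Slpi reads each.

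Epithelial lists that marked area L4 were less like Slpi. Stratified epithelium genes summed to 380 CPM in L4, 61.3 in R5, 26.1 in R2, 14.0 in R3 and 13.9 in R4 (RMS difference 1.31), and urothelial genes differed by 1.13. Both lists shared the peak in L4 with Slpi but ran over a far wider range, with Slpi per summed urothelial CPM from 0.364 to 3.89. Between L4 and R4 the keratin Krt5 went from 294 to 1.89 CPM, and Slpi from 353 to 166 CPM. The desmocollin Dsc3 was nearer (0.308), and lay between 6.89 and 13.8 CPM. Without L4 the fitted value of Slpi was 8.24, and without L4 and R5 it was 8.10.

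Spink6 was nearest to the secreted epithelial defence list (RMS difference 0.202), whose sum is largely Umod, the uromodulin of the thick ascending limb, with Pigr and Lyz2. Umod stood at 5300 CPM in R3, 3720 in R4, 3540 in R5, 2460 in L4 and 1220 in R2, the order of Spink6 (0.344). The proximal tubule list came next (0.280), at 16000 CPM in R4, 14300 in R3, 12800 in R5, 10400 in R2 and 8220 in L4. All 9 of its tested genes were called lower than in normal cortex, beside 35.3% of all tested genes. Aqp4, a water channel of principal cells (0.241), and Atp6v0d2, a proton pump subunit of intercalated cells (0.284), were the nearest members of their lists. The other principal cell genes compared lay at 0.516 (Hsd11b2) to 1.14 (Aqp3). The other intercalated cell genes lay at 0.547 (Atp6v1b1) to 0.756 (Slc26a4). All of these were beyond the median difference of 0.486 over all genes compared with Spink6. Principal cell genes as a list were at 0.486. Intercalated cell genes as a list were at 0.516, with 250 CPM in R3 and 52.6 in R2. Spink6 per summed proximal tubule CPM ran from 0.00122 to 0.00222, a 1.81-fold range. It was 0.941 from the B and plasma cell list. The part of retained tubule in the level of Spink6 was not tested.

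**Figure D3:**
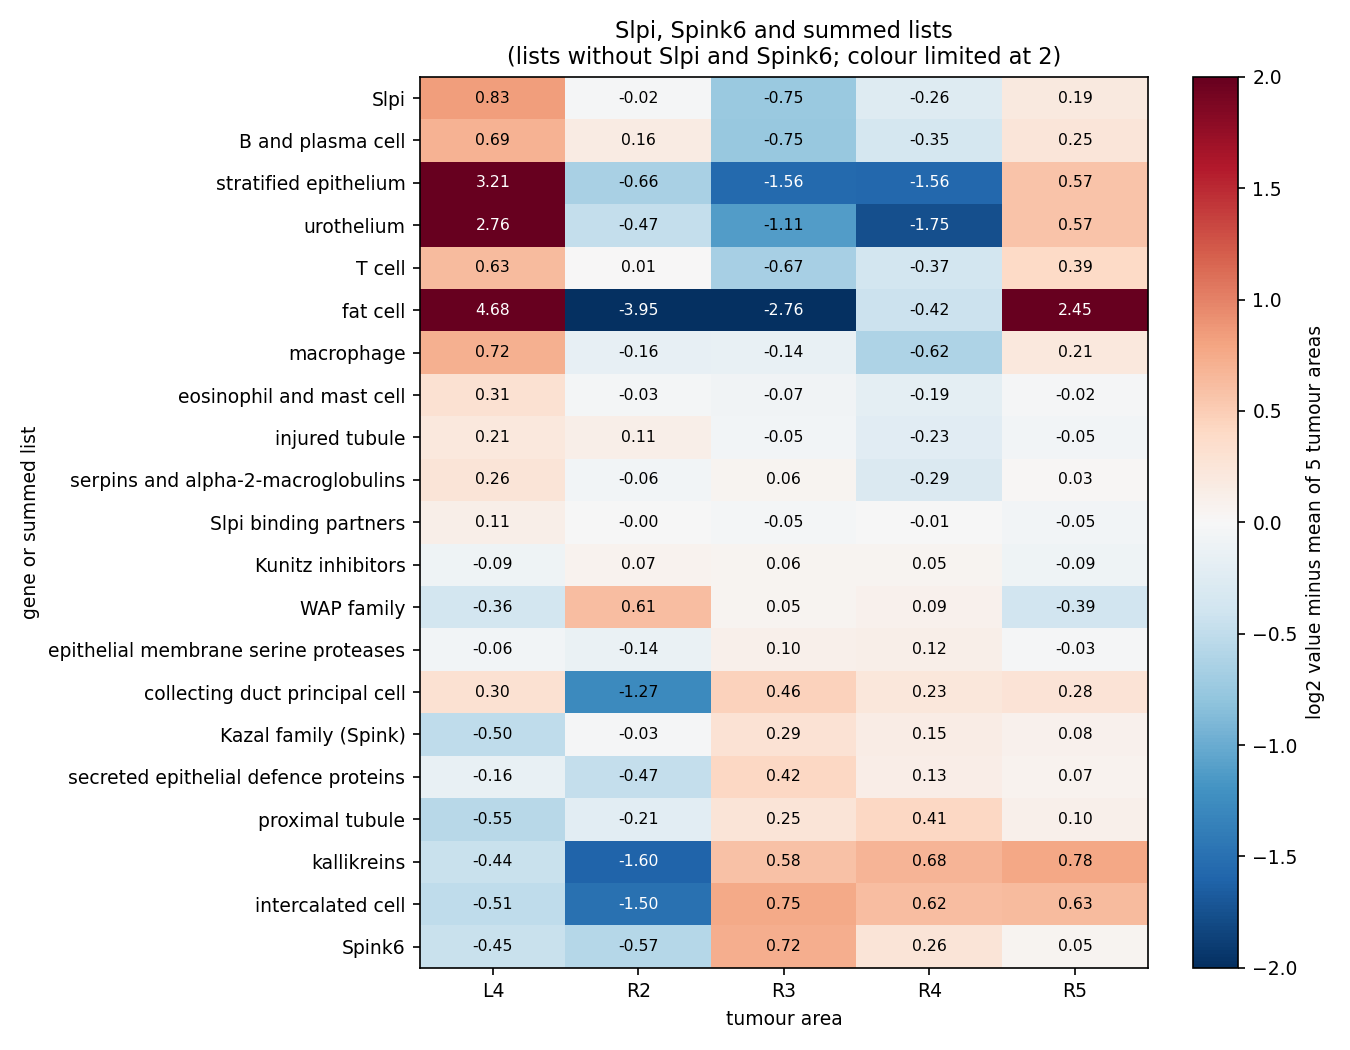
Log2 values minus the mean of the 5 tumour areas (colour and printed number) for Slpi, Spink6 and 19 lists summed without them (rows) in each tumour area (columns), with rows sorted from those nearer Slpi to those nearer Spink6. The B and plasma cell row follows Slpi, with its lowest value in R3 (-0.75 in both), and the proximal tubule, kallikrein and intercalated cell rows are higher in R3, R4 and R5, as Spink6 is.

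Among inhibitors of the same families, no other tested gene had a fold change near those of the pair. The pair was chosen for its large increase, so nothing is read from this. Of 24 WAP family genes listed, 14 are in the table and 7 of these had no count (Wfdc3, Wfdc5, Wfdc6a, Wfdc6b, Wfdc9, Wfdc11 and Spint4). Beside Slpi, 2 were tested and both rose, where 39.3% of all tested genes were called higher. Their median log2 fold change was 1.79 against 0.06 over all tested genes. Wfdc2, the epithelial secreted protein also called HE4, rose from 25.7 ± 2.43 to 146 ± 44.7 CPM (2.50 ± 0.21 (SE), adjusted p = 2.57e-06), and Wfdc16 from 10.8 ± 2.40 to 23.1 ± 7.44 CPM (1.09 ± 0.25 (SE), adjusted p = 0.00249). Over the tumour areas Wfdc2 was highest in R2, at 218 CPM, and lowest in L4 and R5, at 109 CPM each, unlike Slpi (RMS difference 0.768). Wfdc1 held 15 tumour and 7 normal reads, Wfdc8 3 and 0, Wfdc12 1 and 0, and Eppin 0 and 1, too few to be tested.

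Of 13 Kazal family genes 11 are in the table, and Spink2, Spink7 and Spink14 had no count. Spink1, the pancreatic secretory trypsin inhibitor, was abundant and did not pass, at 144 ± 27.2 CPM in tumour and 149 ± 5.82 CPM in normal areas (log2 fold change -0.04 ± 0.13 (SE), adjusted p = 0.771). Its sign turned without tumour L4 (0.07), without L4 and R5 (0.10), with upper quartile scaling (0.02) and with library size alone (0.24). Spink8 fell from 8.71 ± 1.32 to 2.80 ± 1.58 CPM (-1.64 ± 0.37 (SE), adjusted p = 0.00222). Over the tumour areas Spink1 ran 173 CPM in R3, 158 in R4, 149 in R5, 142 in R2 and 100 in L4, so that R3, R4 and R5 led in both Spink1 and Spink6 (RMS difference 0.327). Spink12 held 12 tumour reads and 1 normal read, Spink11 7 and 3, Spink5 6 and 0, Spinkl 1 and 0, and Spink4 0 and 2.

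Inhibitors of other folds moved both ways. Of 14 tested serpin and alpha-2-macroglobulin genes 10 rose and 2 fell, where 39.3% of all tested genes were called higher and 35.3% lower. A2m, a broad protease trap, rose from a mean of 0.765 CPM to 20.4 to 46.8 CPM (5.32 ± 0.42 (SE), adjusted p = 1.48e-06). Serpina6, the glucocorticoid carrier of plasma, held 1 normal read and 132 tumour reads, a ratio of 94.2 (95% exact counting interval 16.6 to 3750), and was fitted at 6.04, or 7.65 without normal L2. Serpina10, which inhibits coagulation factor Xa, rose by 3.99 ± 0.50 log2 units (adjusted p = 3.75e-05), and by 5.43 without normal L2. A2m, Serpina6 and Serpina10, which count among the 10, passed the filter on low counts through the tumour areas alone, so their values are a description. Serpina1a fell by 1.78 and Pzp by 0.92, the latter with no call without any 1 of the normal areas (adjusted p = 0.0611 to 0.0706) or with library size alone (0.099). Serpina1a has close paralogs that could share its reads. It lost its call without tumour R4, and Serpina1f, at 53.3 ± 18.7 against 77.8 ± 13.8 CPM, gained one without R2 or R3, in DESeq2 and in limma-voom. Of 5 tested Kunitz genes 1 rose and 1 fell, beside 39.3% and 35.3% of all tested genes. Spint2, an inhibitor of membrane serine proteases, rose from 482 ± 8.24 to 908 ± 44.7 CPM (0.91 ± 0.06 (SE), adjusted p = 3.07e-07). Tfpi2 fell by 0.91 ± 0.10 (adjusted p = 1.35e-05), and App, Aplp2 and Col6a3 did not pass.

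The proteases that Slpi is best known to block were hardly counted. Elane, neutrophil elastase, held 1 read in all 9 libraries, in tumour R5, and Ctsg, cathepsin G, held 1 read, in R3. These counts measure RNA, and do not show whether the proteases themselves were present. Prtn3, proteinase 3, another leukocyte protease, held no read. Of 23 measured leukocyte serine proteases, 14 had no count and none passed the filter, and the list summed to 2.01 to 11.8 CPM in tumour and 0.681 to 1.33 CPM in normal areas. Its mast cell members held the most reads: Tpsb2, a tryptase, had 26 reads in L4, 13 in R3, 7 in R5, 2 in R4 and 1 in R2, and Mcpt4, a chymase, had 33 in L4 and 1 to 6 in the other tumour areas. Markers of neutrophils summed to 2.90 to 5.70 CPM in tumour and 0.954 to 2.16 CPM in normal areas, over 7 of 12 genes. Camp was at 0, and S100a8, S100a9, Ly6g, Cxcr2 and Stfa2l1 were not measured in the table.

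Among the kallikreins, the family that holds the known targets of Spink6, Klk1 was the most counted, and it fell. Klk1 itself is not among the kallikreins that Spink6 is known to inhibit. Of 3 tested kallikreins 1 was called higher and 2 lower, beside 39.3% and 35.3% of all tested genes. Klk1 went from 1530 ± 116 to 339 ± 178 CPM (-2.18 ± 0.40 (SE), adjusted p = 0.000559), with 495 CPM in R5, 464 in R4, 433 in R3, 209 in L4 and 93.0 in R2. All tumour areas lay below all normal areas, and the areas lowest in Klk1, L4 and R2, were also those lowest in Spink6 (RMS difference 0.608). Klk1b5 fell by 1.61 on the log2 scale (adjusted p = 0.0126), with no call without normal L2 (0.0534) or tumour R4, and its near-identical Klk1b copies make its reads uncertain. Klk8 rose from 0.843 ± 0.174 to 2.28 ± 1.10 CPM (1.45 ± 0.41 (SE), adjusted p = 0.0082). It passed the filter on low counts through the tumour areas alone, and did not pass once any 1 tumour area was left out. The epidermal kallikreins Klk5, Klk6, Klk7, Klk9, Klk12 and Klk14 had no count in any library.

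Membrane serine proteases of tubule epithelium split. Of 5 tested 1 was called higher and 3 lower, beside 39.3% and 35.3% of all tested genes. Prss8, or prostasin, which acts on the epithelial sodium channel, fell from 968 ± 23.7 to 633 ± 107 CPM (-0.61 ± 0.12 (SE), adjusted p = 0.000732). Tmprss2 fell by 0.48 (adjusted p = 0.0026), a call that scaling by library size alone did not give (0.207). Tmprss9 fell by 1.64 (adjusted p = 0.00549). Tmprss6, matriptase-2, with 69 tumour reads and 1 normal read, had a ratio of 49.2 (95% exact counting interval 8.55 to 1970). Tmprss6 passed the filter on low counts through the tumour areas alone. Its call (adjusted p = 5.48e-05) was lost through the filter without tumour R2, R3, R4 or R5, and the fit of 5.10 became 6.71 without normal L2. St14, matriptase, stood at 99.1 ± 19.9 in tumour and 90.7 ± 3.27 CPM in normal areas (adjusted p = 0.416). It was called higher without tumour R2 and with library size alone. Protease-activated receptors were not measured in the table.

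**Figure D4:**
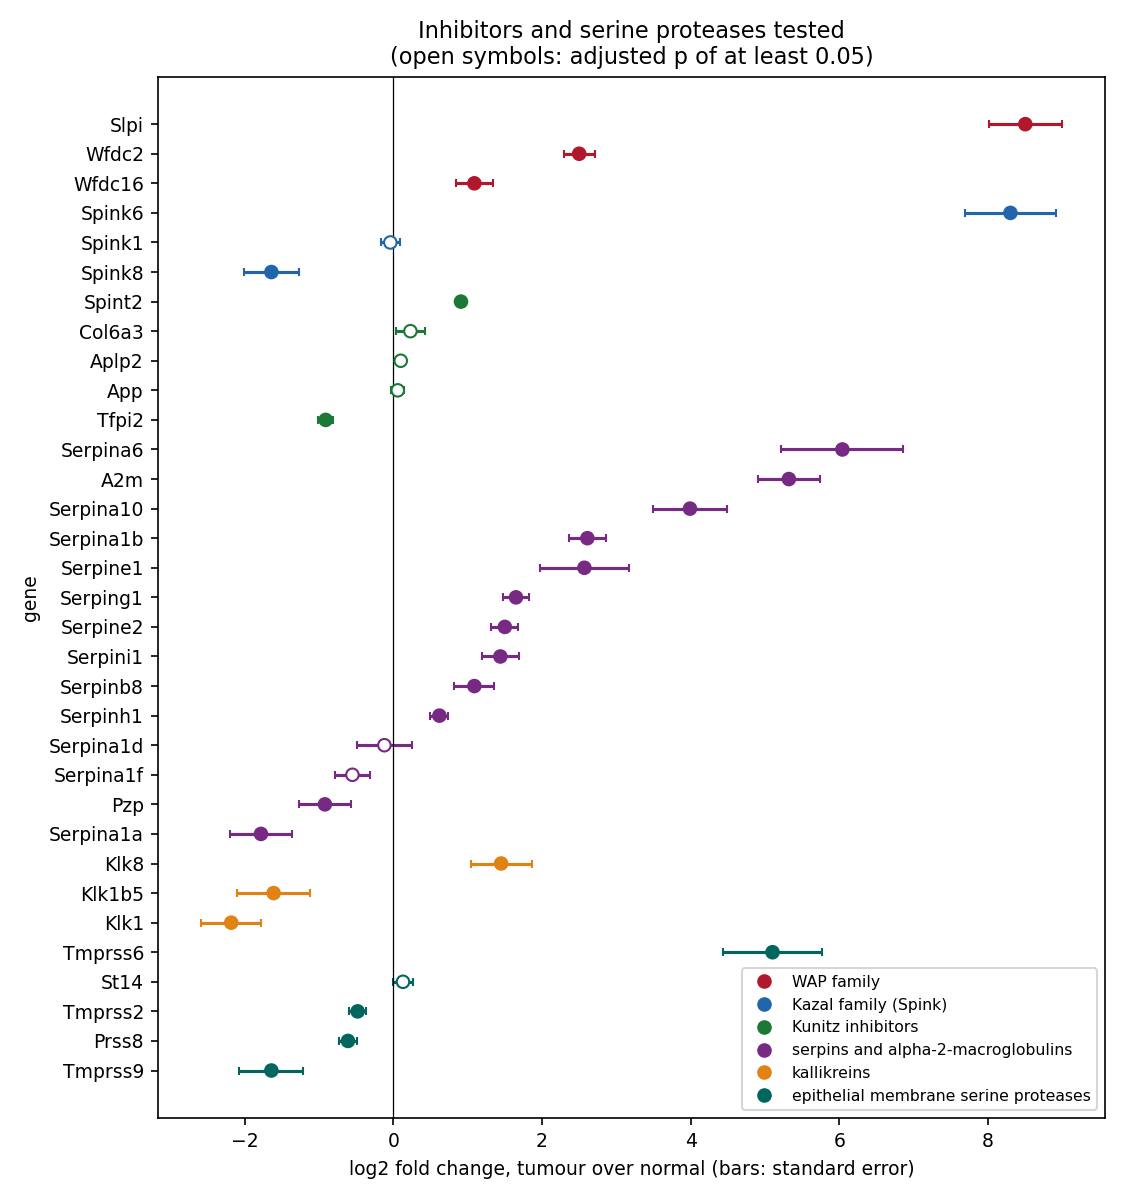
Log2 fold change, tumour over normal (horizontal; points are edgeR estimates, bars standard errors) for the tested genes of the inhibitor and serine protease lists (vertical, coloured by list); open symbols did not pass at an adjusted p of 0.05. Slpi (8.50) and Spink6 (8.30), chosen for their increase, lie furthest right for that reason. Serpina6 (6.04), A2m (5.32) and Tmprss6 (5.10) come after them, and Klk1 (-2.18) lies furthest left.

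Among 5 listed binding partners of Slpi, 2 were tested and they moved apart. Grn, whose progranulin product is shielded by Slpi from cleavage by elastase, rose from 22.7 ± 2.23 to 57.0 ± 4.34 CPM (1.32 ± 0.09 (SE), adjusted p = 6.25e-07). Its tumour areas lay between 52.6 and 64.0 CPM, so it did not share the wide range of Slpi (RMS difference 0.528). Plscr4, a phospholipid scramblase, fell from 98.8 ± 3.42 to 45.6 ± 5.98 CPM (-1.11 ± 0.09 (SE), adjusted p = 1.9e-06). Anxa2 was listed at 0 in all libraries and Plscr1 held few reads.

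Other secreted defence proteins and tubule injury genes were examined next. Of 8 tested defence genes 5 rose and none fell, beside 39.3% and 35.3% of all tested genes. They included Lyz2, of phagocytes (4.04 ± 0.27 (SE), adjusted p = 5.41e-07), Pglyrp1, a peptidoglycan receptor (4.49 ± 0.53 (SE), 2.44e-05), and Lyz1 (4.96 ± 0.85 (SE), 0.000362, and 4.21 without tumour L4). Pglyrp1 and Lyz1, which count among the 5, passed the filter on low counts through the tumour areas alone. That filter favoured a rise, so their values are a description. Umod, at 3250 ± 1520 against 5440 ± 403 CPM, did not pass (adjusted p = 0.0584), and passed as lower without tumour R2 or R3, with RLE scaling, in DESeq2 and in limma-voom. Of 8 tested injury genes 7 rose and none fell, beside the same shares of all tested genes. Havcr1, the kidney injury molecule of proximal tubule, held 536 tumour and 3 normal reads, a ratio of 128 (95% exact counting interval 43.4 to 620). It was highest in R2, at 23.6 CPM, and lowest in R5, at 11.7 CPM, and differed from Slpi by 0.774 and from Spink6 by 0.601. Cd44, a hyaluronan receptor, rose by 4.45 ± 0.31 (SE, adjusted p = 7.27e-07) and lay near Slpi (0.189), at 274 CPM in L4, 184 in R5, 164 in R2, 120 in R3 and 112 in R4. Krt20 rose by 3.84 ± 0.74 (SE, adjusted p = 0.000798), by 3.13 without tumour L4 and by 4.61 without normal L2. Havcr1 and Krt20, which count among the 7, owed their place in the test to the tumour areas, and their values are a description too. Clu did not pass, and was called lower without tumour R3.

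Few genes next to the pair on the chromosome could be tested. None of those tested changed by a like size, from which nothing is read, since the pair was chosen for its large increase. Neighbours were chosen after the values of the pair were seen, as the 5 protein-coding genes in the table on either side in RefSeq order. Of 10 around Slpi only 2 were tested. Sdc4, a syndecan, rose from 1210 ± 35.8 to 1560 ± 137 CPM (0.37 ± 0.08 (SE), adjusted p = 0.00123), and Stk4, a kinase of the Hippo pathway, stood at 244 ± 28.2 against 227 ± 10.8 CPM (adjusted p = 0.288). Stk4 passed without tumour R3 (0.0336) and with library size alone (0.00547). The WAP genes Wfdc12 and Wfdc5, on one side of Slpi, held 1 read and none. Of 10 around Spink6, 1 was tested, Spink1, with the values given above. The nearest were Spink14, with no read, and Spink12, with 12 tumour reads and 1 normal read. Spink12 had too few to be tested, at a ratio of 8.56 (95% exact counting interval 1.27 to 366).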

How the data were processed

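RNA was sequenced from 9 areas of mouse kidney cortex, 5 tumour and 4 normal. STAR 2.3, HTSeq, edgeR and mm9 appear in the submitters' processing notes; annotation, strand setting and filters were not stated there. The authors deposited 1 table of raw read counts for all areas. Of 14052 identifiers 14026 matched a symbol.

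Genes passing filterByExpr (minimum count 10, minimum total 15) numbered 7020. TMM factors were 1.04 to 1.17 for tumour libraries and 0.89 to 0.90 for normal ones. Tumour was compared with normal by the quasi-likelihood test of edgeR 4.0.16 (R 4.3.3), with no covariate, Benjamini-Hochberg adjustment over all tested genes and calls at an adjusted p under 0.05. The procedure was tested on simulated data, where it called 58.5% of genes changed 1.5-fold and 84.8% of those changed 2-fold. A gene that did not pass may therefore have changed. Far fewer genes changed there than the 74.6% called here, so scaling under so many changes was not tested. SDs are over areas, likeness used log2 CPM with a prior count of 2, a single 0 allows 3 counts, and intervals are exact at 95%.

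The members, lists and tests were chosen with earlier results of these data known. Named genes are the pair, every WAP and Kazal gene in the table, up to 3 called genes per other list and direction whose higher group averaged 1 CPM or more, and the 5 genes nearest to each inhibitor among those with a tumour mean of at least 10 CPM, without predicted genes and receptor segments; 1 gene so chosen is not reported here. The 100-gene counts, list sums, neighbours and further genes named inside lists were chosen after values were seen. Alternatives were other scalings, other filters, DESeq2 1.42.0, limma-voom (limma 3.58.1), the area letter as a covariate and each area left out. By BLAST 2.17.0, no other gene's transcript matched Slpi or Spink6 at 90% identity over 50 bases. In GENCODE M21 the exons of Slpi overlap 1 microRNA gene and those of Spink6 no gene.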

Additional observations from a re-analysis of the deposited data

Results flagged for a closer look

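Of 40 genes followed singly, 3 had a tumour area far from the others, measured as its gap to the nearest area over the group's range. Chance gives such a gap in about 1 in 20 groups. Krt20 stood at 33.0 CPM in L4 against 10.2 CPM in the next area, and Lyz1 at 26.1 CPM in L4 against 9.12 CPM. Serpina6 stood at 8.70 CPM in R3 against 3.77 CPM. Neither Slpi nor Spink6 had such an area.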

How the results depend on the processing

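No paired analysis was possible because the groups share only the area name R2. The log2 fold change of Slpi stayed between 8.10 and 8.83 over all alternatives. That of Spink6 was 7.35 in limma-voom and 7.89 to 9.95 with each area left out. The difference between Slpi and Spink6 over the tumour areas was 0.651 to 1.05 with each tumour area left out and 0.826 without L4 and R5, an alternative added once values were known.

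Small counts of list members moved, and so did calls over all genes. Of 7020 tested genes, 2760 were called higher and 2476 lower in the main fit. With library size alone these numbers were 3732 and 1689, and with upper quartile scaling 2976 and 2279. Without the filter they were 3108 and 2623 of 10063 genes. Kunitz genes called higher numbered 2 with upper quartile scaling, without the filter, with at least 1 CPM in 4 libraries and without L4 and R5, 4 with library size alone, and 1 to 2 with each area left out. Serpin genes called lower numbered 1 with library size alone and 1 to 3 with each area left out. Kallikreins called higher numbered 0 without L4 and R5 and 0 to 1 with each area left out, and those called lower 9 without the filter and 1 to 2 with each area left out. Membrane proteases called higher numbered 2 with library size alone, 5 without the filter and 0 to 2 with each area left out. Defence genes called lower numbered 1 with RLE scaling, DESeq2 and limma-voom and 0 to 1 with each area left out, and injury genes called lower 0 to 1 with each area left out. The cause was not tested, except that no filter tests more genes. Genes followed singly kept their direction and side of the threshold in 647 of 672 comparisons. Fits in which a gene did not pass the filter, as with Klk8 and Tmprss6 above, are not among the 672. Spink1 changed sign in 4 comparisons (0.02 with upper quartile scaling, 0.24 with library size alone, 0.10 without L4 and R5, and -0.11 to 0.07 with each area left out).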
